A study of Homo sapiens with 2 samples.

Results

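The glutathione and cysteine supply genes are the 8 genes GCLC, GCLM, GSS, GSR, SLC7A11, SLC3A2, CTH and CBS, and they were examined for binding of NRF1 (encoded by NFE2L1) in HCT116 cells, a human colorectal carcinoma cell line. A ChIP-seq peak was assigned to one of these 8 genes when its centre lay within 50 kb of any transcription start site (TSS) of that gene on hg19, or when the study's own annotation listed it for the gene. By this rule 13 of the 5683 peaks in the deposited list belonged to the group. They fell to 6 of the 8 genes, whereas 32.7% of all protein-coding genes had a peak within this distance. GSS and CBS had none.

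The study asked which genes NRF1 occupies when the proteasome is inhibited. All cells were treated with MG132, a peptide aldehyde that blocks the proteasome, at 1 µM for 16 h. Peaks came from 1 library immunoprecipitated with an antibody to NRF1, while an input library (1 sample, same treatment) was not used here. There was no replicate, and NRF1 ChIP of untreated cells was not analysed, so that no value below has a replicate error, no difference was tested, and binding under MG132 cannot be told apart from binding present without it. The sequencing depth is unknown. Each peak carries the score of the caller MACS, −log10 of its p-value multiplied by 10. The scores ran from 50.00, a p-value of 1e-05, through a median of 91.86 to 3100.00, and they served only to rank peaks within the list.

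Glutathione is a tripeptide of glutamate, cysteine and glycine, and cysteine is usually the limiting amino acid. Glutamate-cysteine ligase joins the first pair, glutathione synthetase adds glycine, and glutathione reductase returns the oxidized form to use. Cysteine enters as cystine through the xCT exchanger or is made from homocysteine by transsulfuration. NRF1 is a CNC-bZIP factor that pairs with small MAF proteins and binds the antioxidant response element (ARE), as does its relative NRF2, and it is released for nuclear entry when proteasome activity falls.

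The sequences beneath the peaks were read from hg19 to show which form of the ARE each one held. The consensus ARE was searched as TGACNNNGC or TGAGNNNGC, and its full form as TGACTCAGC or TGAGTCAGC, on both strands. Every full ARE is also a consensus ARE and holds the AP-1 element, searched as TGACTCA or TGAGTCA. The C/EBP-ATF composite element, an element bound by ATF4 with C/EBP partners, was searched as TGATGCAA. The sequences with an ARE come first, chosen because they hold a full ARE, or the consensus form in its place, at the genes of synthesis, import and transsulfuration, with the ARE in capitals and each read 5′ to 3′ on the strand named. The GCLM promoter and SLC7A11 intron 2 sequences hold consensus forms, and the other 5 hold the full ARE.
GCLC distal, chr6:53480812-53480900, minus strand: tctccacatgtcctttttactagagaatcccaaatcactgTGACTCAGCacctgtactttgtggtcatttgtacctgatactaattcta
GCLC proximal, inner, chr6:53413007-53413095, plus strand: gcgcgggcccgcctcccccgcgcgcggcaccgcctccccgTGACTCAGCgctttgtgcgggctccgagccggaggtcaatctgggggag
GCLC proximal, outer, chr6:53413212-53413300, plus strand: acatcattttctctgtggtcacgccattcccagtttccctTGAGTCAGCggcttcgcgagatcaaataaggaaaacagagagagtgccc
GCLM promoter, chr1:94375002-94375030, plus strand: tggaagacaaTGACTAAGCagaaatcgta
SLC3A2, chr11:62649109-62649167, plus strand: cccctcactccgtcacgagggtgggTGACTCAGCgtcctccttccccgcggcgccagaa
CTH, chr1:70874975-70875063, minus strand: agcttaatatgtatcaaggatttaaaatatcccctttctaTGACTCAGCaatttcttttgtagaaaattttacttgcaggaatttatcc
SLC7A11 intron 2, chr4:139156810-139156898, plus strand: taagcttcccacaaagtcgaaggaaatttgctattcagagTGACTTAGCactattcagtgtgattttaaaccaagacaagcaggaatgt

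The next 3 sequences are shown for SLC7A11, since they hold the C/EBP-ATF element, which no other gene of the group had in a peak. Capitals mark the C/EBP-ATF element, on either strand, and in the intron 6 sequence also the consensus ARE beside it.
SLC7A11 promoter, chr4:139163532-139163638, plus strand: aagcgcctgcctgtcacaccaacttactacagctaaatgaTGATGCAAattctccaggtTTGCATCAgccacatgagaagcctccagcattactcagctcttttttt
SLC7A11 upstream, chr4:139173895-139173982, minus strand: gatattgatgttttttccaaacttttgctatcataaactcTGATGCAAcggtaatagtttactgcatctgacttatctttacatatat
SLC7A11 intron 6, chr4:139120825-139120926, minus strand: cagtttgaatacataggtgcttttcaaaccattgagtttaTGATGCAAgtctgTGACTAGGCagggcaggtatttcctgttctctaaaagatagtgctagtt

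The 13 peaks had scores of 52.96 to 800.96 with a median of 116.18, and 7 of them lay above the median of the list. Of the 13, 3 were among the top 100 of the list, the distal GCLC peak and the promoter peaks of GCLM and GSR. The peaks were 223 to 969 bp wide. The study's annotation, in a shortened copy that leaves out the more distant peaks, listed 9 of the 13 for the same gene. The other 4, at GCLC, GCLM, SLC7A11 and SLC3A2, lay farther from the canonical TSS. The one at GCLC was 1089 bp from the TSS of another transcript of the gene. For 2 of those 4 the nearest TSS of a coding gene was that of another gene, DNTTIP2 beside GCLM and WDR74 beside SLC3A2.

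**Figure D1:**
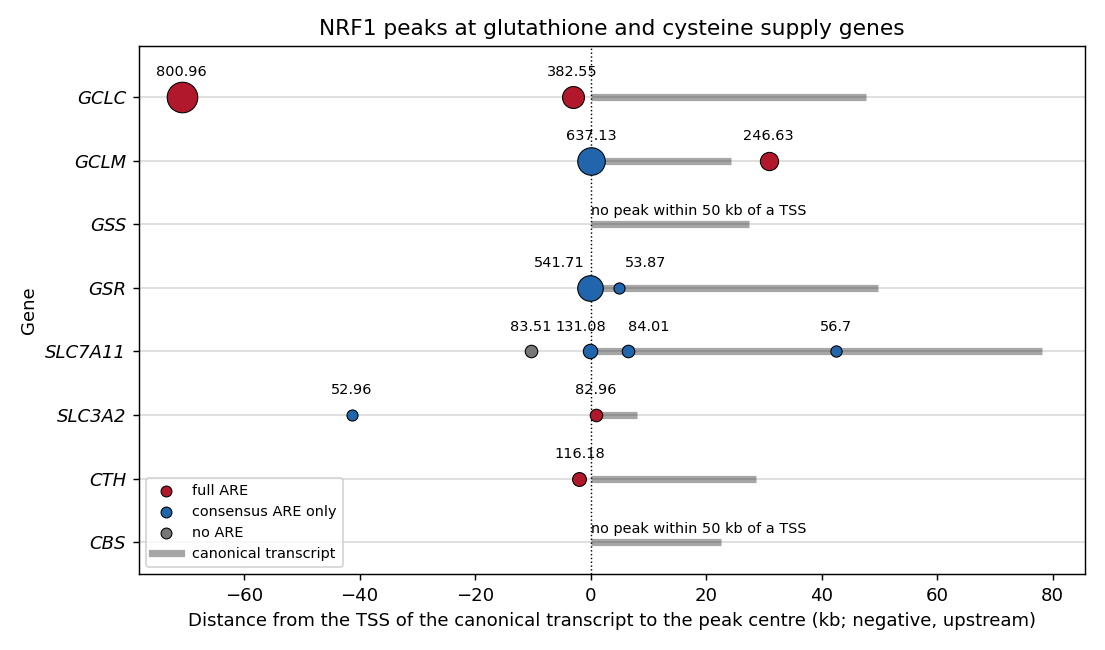
Position of each of the 13 peaks (points) along the 8 genes, as the distance in kb from the TSS of the canonical transcript to the peak centre, with upstream to the left. The area of a point grows with the peak score, which is printed above it, colour gives the ARE form and grey bars show the canonical transcripts. GCLC, GCLM and GSR carry the peaks with the highest scores, SLC7A11 carries 4 peaks of lower score, and GSS and CBS carry none.

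Within 2 kb of a TSS, the window of the study, 6 of the 8 genes had a peak, beside 6.03% of all protein-coding genes. For GCLM, GSR, SLC7A11, SLC3A2 and CTH this peak lay within 2 kb of the TSS of the canonical transcript. For GCLC it lay near the TSSs of other annotated transcripts. No further peak came in when the window was widened to 100 kb. The outermost peak inside the window was at GCLM, 30217 bp downstream of the nearest TSS of the gene, with a score of 246.63, followed by one at SLC7A11, 23454 bp downstream, with a score of 56.7. The peaks nearest to GSS and CBS lay 177850 and 165673 bp from a TSS of the gene.

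GCLC (ENSG00000001084.13_18, minus strand, canonical transcript at chr6:53362139-53409899) encodes the catalytic subunit of glutamate-cysteine ligase. Its distal peak, chr6:53480238-53481120, had a score of 800.96 and rank 28 in the list, the highest of the 13. This peak was centred 70780 bp upstream of the canonical TSS. It counted for GCLC through the transcript ENST00000505197.1_6, which starts farther upstream. The peak lay 1089 bp downstream of that start, in its intron 1. The nearest TSS of any kind belonged to the lncRNA gene LINC01564, which starts 590 bp away, so that the gene to which this peak belongs cannot be told from position alone. The distal peak held 1 full ARE, 177 bp from its centre, and 1 AP-1 element outside it, 126 bp from the centre. Among the 3479 peaks with a full ARE in the whole list it ranked 21.

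The proximal GCLC peak, chr6:53412667-53413325, had a score of 382.55 and rank 249. It was centred 3097 bp upstream of the canonical TSS and 8 bp into exon 1 of the transcript ENST00000616923.5_13. It held 4 consensus AREs, the most in any of the 13 peaks, and 2 of them were full AREs. The full AREs lay 3152 and 3357 bp upstream of the canonical TSS and 205 bp from each other, and they are the inner and outer proximal sequences above. One of them had TGACTCAGC and the other TGAGTCAGC. The remaining pair, TGAGCATGC and TGACTGCGC, overlapped an annotated UTR. Its GC content was 63.3%, against 40.9% in the distal peak and a median of 45.3% over all peaks.

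GCLM (ENSG00000023909.10_8, minus strand, chr1:94350755-94374986) encodes the modifier subunit, which raises the activity of the catalytic subunit. The promoter peak, chr1:94374430-94375398, had a score of 637.13 and rank 66. Its centre lay 72 bp downstream of the canonical TSS in exon 1. It was the widest of the 13 peaks and had the highest GC content, 74.9%. No full ARE was found in it. It held 2 consensus AREs, TGAGGGAGC at 4 bp and TGACTAAGC at 30 bp upstream of the TSS. They lay 76 and 102 bp from the peak centre, in that order. The second form occurred in 130 of 5678 peaks searched, or 2.29%, and in 0.167% of the sequences of equal width placed 2 kb beyond either edge of each peak. For the first form these shares were 0.634% and 0.591%, nearly the same in peaks and flanks. Among all 2199 peaks without a full ARE the GCLM promoter peak ranked 22.

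A second peak lay 30857 bp downstream of the GCLM TSS, past the end of the gene, at chr1:94343881-94344377. Its score was 246.63 and its rank 630. It held a full ARE 23 bp from its centre and a consensus ARE whose start lay 12 bp away on the opposite strand. This peak was centred 583 bp from the TSS of DNTTIP2, so that its assignment to GCLM rests on the 50 kb window alone.

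GSS (ENSG00000100983.12_15, minus strand, chr20:33516235-33543609) encodes glutathione synthetase, which performs the last step of synthesis. None of its 25 annotated TSSs had a peak within 50 kb. The nearest peak, chr20:33721410-33721951, had a score of 125.72 and rank 1856. Both subunits of the first enzyme of synthesis thus had peaks within 2 kb of an annotated TSS, at ranks 249 and 66 without the distal GCLC peak, and the enzyme of the last step had none within 50 kb. At an unknown depth, no peak means only that none passed the authors' threshold.

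GSR (ENSG00000104687.14_14, minus strand, chr8:30535583-30585363) encodes glutathione reductase, which regenerates reduced glutathione with NADPH. Its promoter peak, chr8:30585137-30585799, had a score of 541.71 and rank 96. It was centred 105 bp upstream of the TSS and held 2 consensus AREs, 75 and 87 bp upstream. Their starts were 12 bp apart, on opposite strands, and neither was a full ARE. This peak ranked 30 among all peaks without a full ARE, and its GC content was 69.8%. A weak peak in intron 1, chr8:30580284-30580683, was centred 4880 bp downstream of the TSS with a score of 53.87 and rank 5246. It held 1 consensus ARE, 14 bp from its centre. GCLM and GSR thus each had a promoter peak of high score and high GC content with 2 consensus AREs and no full ARE. The arrangement of the AREs differed, as the starts at GCLM were 26 bp apart on the same strand.

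**Figure D2:**
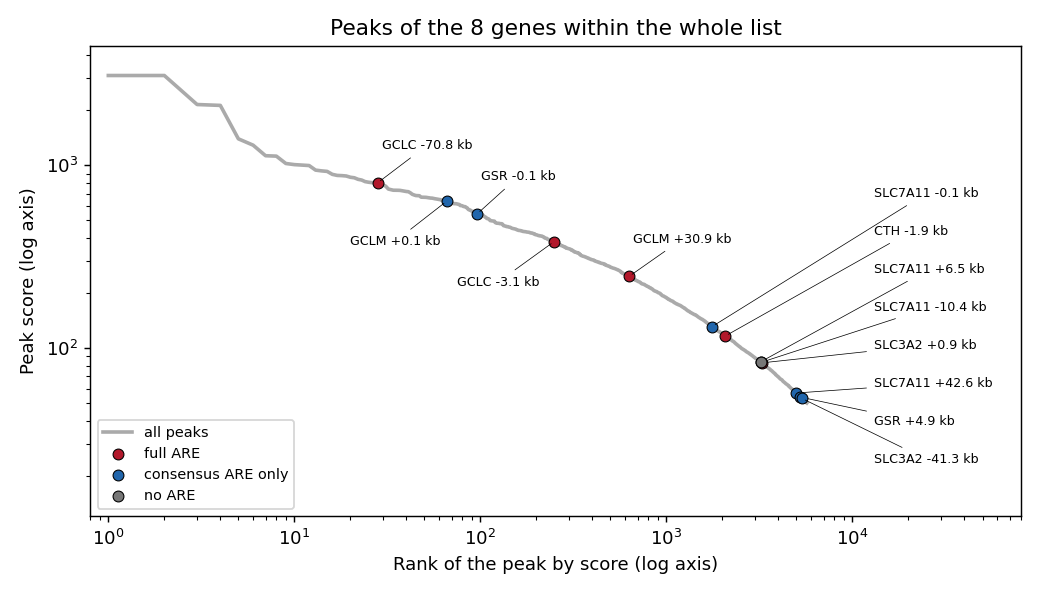
Score of every peak in the list against its rank, both on log axes (grey line), with the 13 peaks of the group as points coloured by ARE form and labelled by gene and distance to the canonical TSS. The 5 peaks of GCLC, GCLM and the GSR promoter lie at ranks 28 to 630, and the peaks of SLC7A11, SLC3A2 and CTH lie at ranks 1760 to 5351.

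SLC7A11 (ENSG00000151012.13_9, minus strand, chr4:139085251-139163503) encodes xCT, the light chain that exchanges extracellular cystine for glutamate. It had 4 peaks within 50 kb, the most in the group. Among all protein-coding genes, 0.575% had 4 or more, a comparison made after the number at SLC7A11 was known. The scores were 83.51 at 10388 bp upstream, 131.08 at 140 bp upstream, 84.01 at 6540 bp downstream in intron 2 and 56.7 at 42559 bp downstream in intron 6. All 4 lay far below the scores of the GCLC peaks and of the GCLM and GSR promoter peaks. Only the SLC7A11 promoter peak exceeded the median of the list.

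No SLC7A11 peak held a full ARE. The promoter peak, chr4:139163374-139163912, rank 1760, held a single consensus ARE, TGAGGAAGC, 11 bp upstream of the TSS and 129 bp from the peak centre. This form was about as common in peaks, at 0.652%, as in flanking sequences, at 0.608%. The C/EBP-ATF element occurred in the promoter peak at 73 and 92 bp upstream, on opposite strands with 19 bp between their starts, as the promoter sequence above shows. These elements lay 67 and 48 bp from the peak centre and were thus closer to it than the ARE. Only 4 of all peaks held the element more than once. The upstream peak, chr4:139173780-139174002, rank 3233, was the narrowest of the 13 and the only one with no consensus ARE, and it held 1 C/EBP-ATF element 48 bp from its centre. The intron 6 peak, chr4:139120785-139121103, rank 4974, held 1 C/EBP-ATF element and 2 consensus AREs, TGACTAGGC and TGACTTGGC. The intron 2 peak, chr4:139156706-139157221, rank 3209, held TGACTTAGC 109 bp from its centre and the AP-1 element TGAGTCA 14 bp from the centre, and no C/EBP-ATF element.

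In all, 3 of the 4 SLC7A11 peaks held the C/EBP-ATF element and 0 of the 9 other peaks did. Over the 13 peaks this was 3, beside 2.08% of all peaks in the list and 1.6% of the flanking sequences. The SLC7A11 peaks are rich in A and T. Among all 2114 peaks of 32.3 to 43.3% GC, the range of the 4, the share was 2.46%. It was 2.16%, 1.96% and 1.95% in peaks with a full ARE, a consensus ARE only and no ARE. A match of these letters is a description of the sequence, and binding by ATF4 was not measured.

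SLC3A2 (ENSG00000168003.19_13, plus strand, canonical transcript at chr11:62648368-62656332) encodes the heavy chain 4F2hc, which carries xCT and other light chains to the cell surface. A peak at chr11:62648980-62649463 had a score of 82.96 and rank 3268. It was centred 853 bp downstream of the canonical TSS in intron 1 and 27 bp downstream of another TSS of the gene. It held 1 full ARE, 770 bp downstream of the canonical TSS and 83 bp from the peak centre. Its score placed it at rank 2252 among the 3479 peaks with a full ARE. The other SLC3A2 peak, chr11:62606884-62607175, had a score of 52.96 and the lowest rank of the 13, 5351. It held the consensus ARE TGACAAAGC and lay 41339 bp upstream of the canonical TSS, 1 bp from the TSS of WDR74. The heavy chain and the light chain thus both had promoter-near peaks of modest score, with a full ARE at SLC3A2 and none at SLC7A11.

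CTH (ENSG00000116761.12_6, plus strand, chr1:70876951-70905534) encodes cystathionine gamma-lyase, which releases cysteine in the last step of transsulfuration. Its peak, chr1:70874792-70875238, had a score of 116.18 and rank 2066. It was centred 1936 bp upstream of the canonical TSS and held 1 full ARE, TGACTCAGC followed by A, 4 bp from the centre. This was the smallest distance between an ARE and the centre in the group. CBS (ENSG00000160200.18_8, minus strand, chr21:44473301-44495945) encodes cystathionine beta-synthase, the enzyme of the step before. None of its 17 TSSs had a peak within 50 kb. The nearest, chr21:44313232-44313525, had a score of 50.16, close to the lowest in the list.

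**Figure D3:**
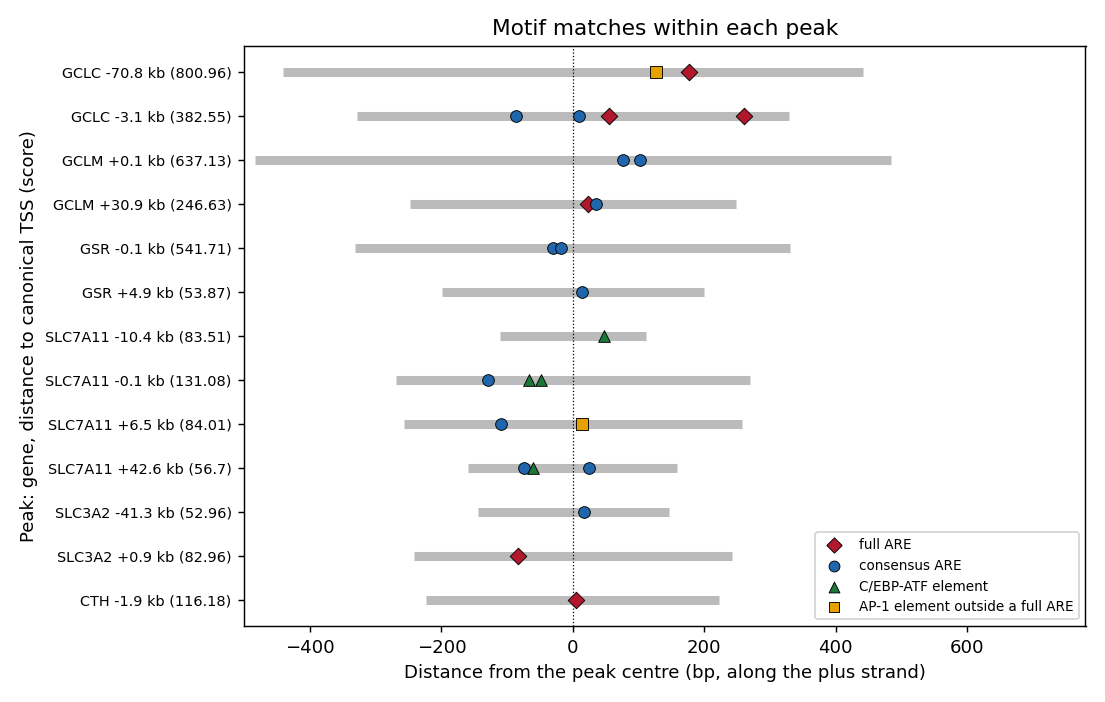
Matches to the full ARE (red diamonds), other consensus AREs (blue circles), the C/EBP-ATF element (green triangles) and the AP-1 element outside a full ARE (orange squares) along each of the 13 peaks (grey bars), as the distance in bp from the peak centre along the plus strand. Rows name the gene, the distance of the peak to the canonical TSS and, in parentheses, the score. C/EBP-ATF elements occur in 3 of the 4 SLC7A11 rows and in none of the others.

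Over the group, 12 of the 13 peaks held a consensus ARE, beside 87.3% of all peaks and 32.8% of flanking sequences, so that this share was near that of the list. The 13 peaks held 19 consensus AREs. A full ARE was found in 5 of the 13, beside 61.3% of all peaks and 1.37% of flanks, and these 5 peaks held 6 full AREs. The full ARE with an A right after it occurred in 2 of the 13, beside 47.1% of all peaks, namely in the GCLC distal and the CTH peak. The AP-1 element was in 6 of 13, beside 75.0% of all peaks and 8.59% of flanks. It occurred in the 5 peaks with a full ARE and in the SLC7A11 intron 2 peak. A full ARE matched on both strands at overlapping positions was in 0 of 13, beside 1.02% of all peaks. The nearest ARE lay a median of 23.5 bp from the peak centre, with a range of 4 to 177 bp over 12 peaks, and 29 bp over all 4959 peaks with an ARE.

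Within the group the scores of the ARE forms overlapped widely. The 5 peaks with a full ARE scored from 82.96 to 800.96, with 246.63 in the middle. The 7 with a consensus ARE only scored from 52.96 to 637.13, with 84.01 in the middle. The peak with neither scored 83.51. These middle values, from few peaks, had the same order as the medians of the list. Over the whole list, the median score was 103.47 with a full ARE, 83.71 with a consensus ARE only and 71.76 with neither. Scores above 500 were reached by 77 of 3479 peaks with a full ARE and 32 of 1480 with a consensus ARE only. These shares were nearly the same. The GCLM and GSR promoters were 2 of those 32. They also had the highest GC contents of the 13 peaks, 74.9% and 69.8%, and the part of base composition in their scores was not tested.

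**Figure D4:**
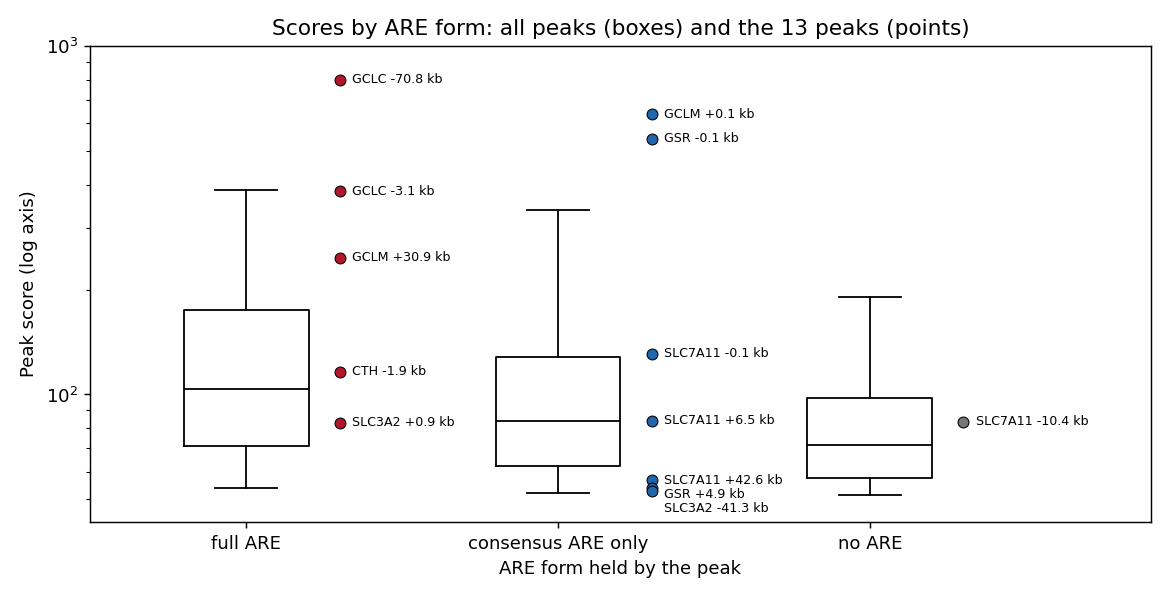
Peak scores on a log axis by ARE form. Boxes show the median and quartiles of all peaks in the list with whiskers at the 5th and 95th percentiles, and points show the 13 peaks with their gene and distance to the canonical TSS. GCLC distal, at 800.96, and the GCLM and GSR promoters, at 637.13 and 541.71, lie above the whiskers of their classes.

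A wider list of 92 genes that use, transport or break down glutathione or supply its amino acids was examined in the same way. Of these, 11 had a peak within 2 kb of a TSS, which is 12% beside the 6.03% of all protein-coding genes. Within 50 kb 39 had one, which is 42.4% beside 32.7%. The same shares of all protein-coding genes stand behind the counts of the smaller groups that follow, which hold 7 to 22 genes each. Their best peaks within 2 kb scored from 50.25 to 496.41, with a median of 96.96. The median over the 6 genes of synthesis, recycling and cysteine supply was 336.40. It counts for GCLC the distal peak of 800.96, whose gene cannot be told from position alone. None of the 6 best scores lay between 131.08 and 541.71, so that this median stands for no gene.

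Glutathione transport was the fullest of these groups, with a peak within 2 kb at 3 of 7 genes and within 50 kb at all 7. ABCC3, an efflux pump for conjugated anions, had a peak of score 496.41, rank 115, 169 bp upstream of a TSS. ABCC2, a related pump of the apical membrane, had a peak of 96.96 within 2 kb and a stronger one of 381.91, rank 251, 6605 bp upstream of a TSS, which held no consensus ARE. SLC25A39, which imports glutathione into mitochondria, had one of 59.69 within 2 kb. The peaks of ABCC2 and ABCC3 within 2 kb each held TGACTAAGC, the form found at the GCLM promoter, and no full ARE.

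Among the glutathione S-transferases, which attach glutathione to electrophiles, 3 of 20 genes had a peak within 2 kb and 10 within 50 kb. GSTP1 had a full ARE in a peak of score 428.42, rank 184, 61 bp upstream of a TSS. The peak of MGST3, a microsomal enzyme, scored 208.54 and also held a full ARE. GSTO1 scored 50.25 with consensus AREs only. A single peak of score 453.45, rank 147, fell within 50 kb of GSTM1, GSTM2, GSTM3 and GSTM5 and was nearest to GSTM5, so that these 4 genes are 1 observation.

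In the other groups, taken in the order below, 8.33%, 0%, 11.8% and 9.09% of genes had a peak within 2 kb. With 0 to 2 genes each, these shares were close to the 6.03% of all protein-coding genes and are not read as differences. Of 12 peroxidases and glutaredoxins, GLRX alone had one within 2 kb, with a score of 63.8, and 4 had one within 50 kb. Of the 14 genes of glutathione breakdown, 0 had a peak within 2 kb and 4 had one within 50 kb. In the methionine cycle and cysteine use, 2 of 17 did within 2 kb and 7 within 50 kb. These were AHCYL1, a relative of the enzyme that hydrolyses S-adenosylhomocysteine, at 270.53 with a full ARE, and BHMT2, a homocysteine methyltransferase, at 84.36 with TGACTAAGC. Among 22 further genes of cystine, glutamate, glycine and serine supply, 2 did within 2 kb and 7 within 50 kb. SLC1A5, a glutamine carrier, had a peak of 155.73 and SLC7A7, another light chain that pairs with SLC3A2, one of 77.92.

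**Figure D5:**
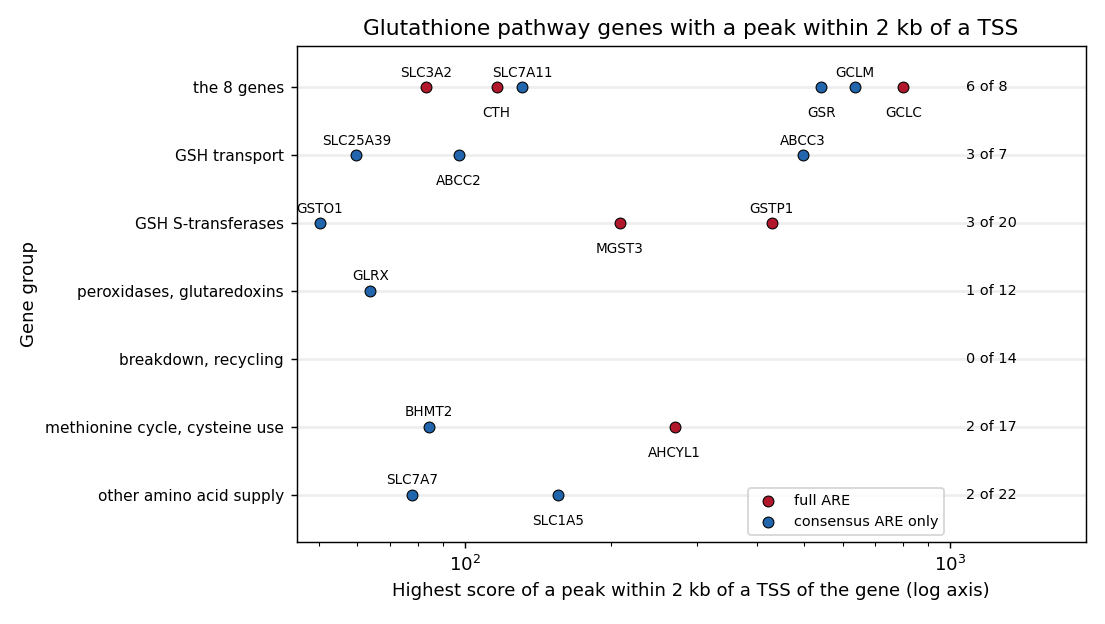
Highest score of a peak within 2 kb of a TSS (log axis) for each gene that had one, in the group of 8 and in 6 groups of the wider glutathione list, coloured by ARE form, with the number of genes with such a peak at the right. Within the 8 genes the points run from 82.96 to 800.96, and in the wider groups the highest is ABCC3 at 496.41.

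Other antioxidant gene lists bound in the same library are given side by side, with no test. Of 13 thioredoxin, peroxiredoxin and sulfiredoxin genes, 6 had a peak within 2 kb, with a median best score of 439.93, and 2 of these 6 best peaks held a full ARE. Of 12 genes in a quinone, heme and iron list, 6 had one, with a median of 633.59, and all 6 best peaks held a full ARE. The highest of these scores, 891.96, was that of ME1. This gene encodes malic enzyme and is not a quinone, heme or iron gene. Among the glutathione and cysteine supply genes, 6 of 8 had a peak within 2 kb. Of their 6 best peaks, 3 held a full ARE, at GCLC, SLC3A2 and CTH. The median best score was 336.40. This median counts the distal GCLC peak. Of all protein-coding genes, 6.03% had a peak within 2 kb and 32.7% within 50 kb. Within 50 kb the lists were alike, with 6 of the 8 supply genes, 10 of the 13 and 9 of the 12.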

How the data were processed

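Human HCT116 cells treated with MG132 were analysed as 1 NRF1 ChIP library, and the input library was not analysed here. Per the methods and the submitters' processing notes, single-end reads were extracted with bcl2fastq in CASAVA 1.8.2 and mapped to hg19 with Bowtie2 2.2.6, and peaks were called with MACS 1.4.2. The deposited table gives the position and the MACS score of each peak, as the authors called it. The call settings, the control and the handling of duplicate reads are not given in the sources used here, and the depth is unknown. TSSs, exons and UTRs came from GENCODE release 44 lifted to hg19, and sequence from hg19. Motifs were searched in 5678 peaks, and 5 peaks on contigs without sequence here were left out. Distances run from the peak centre to a TSS, and a motif's position is its midpoint. The text names the 8 genes with all their peaks, the nearest coding gene, the pathway genes with a peak within 2 kb of a TSS and the 5 with the highest score within 50 kb. These genes, lists and settings were chosen with earlier results of these data known. The search for the full ARE was tested on simulated sequences with a planted match, and the signed distances were checked. The searches for the other motifs were not tested with planted matches. Python 3.11.15, numpy 2.4.6 and matplotlib 3.10.9 were used. Alternatives were a stricter score, other windows, distances from the peak edge, 1 TSS per gene, nearest-gene assignment and the central 200 bp.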

Additional observations from a re-analysis of the deposited data

How the results depend on the processing

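Of 29 counts recomputed with another setting, 27 stayed within 1.5 times the reported count and 13 were unchanged. With a score of at least 100, the peaks within 50 kb of the 8 genes fell from 13 to 7 and those with a consensus ARE from 12 to 7. Among the genes, SLC3A2 then had no peak, and 5 of 8 remained. With the TSS of the longest protein-coding transcript alone, 4 of 8 genes had a peak within 2 kb, as GCLC and SLC3A2 dropped out. The 6.03% of all protein-coding genes counts every TSS, and no share was computed for this setting. With windows of 10 and 100 kb, 6 of 8 genes had a peak. That count could not change, since all 6 had a peak within 2 kb. The peaks nearest to GSS and CBS lay beyond 100 kb. No paired analysis was possible because there was 1 ChIP library. The unknown depth limits any statement on GSS and CBS.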
